A study of Homo sapiens with 4 samples.

Results

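HT29, an established human colon adenocarcinoma line, was compared between 1 library from cells given an antimir against miR-23b and 1 library from cells given the antimir's control. Genes entered when the FPKM of their annotated transcripts, summed and averaged over both libraries, reached 5. FPKM counts fragments per length of transcript and per size of library. Transcript entries that the authors' software marked as failed were left out. This left 9706 of 42309 genes with a usable transcript entry, with 84111 transcript isoforms between them, of 168036 transcript entries in the table. Isoform shares could be taken in 8519 of these genes. The series holds 4 libraries of HT29 at passages 12 to 13, each from 1 culture: precursor, precursor control, antimir and antimir control. Per the labels' protocols, every oligonucleotide was given at 50 nM (the labels write 50nm) with the lipid reagent Lipofectamine 2000, medium was changed at 24 h and RNA was taken at 48 h. The labels describe the antimir group as low in miR23b. The control library was taken to be the one whose table name ends in N, the only other library in that table.

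MicroRNAs are short RNAs that guide Argonaute proteins to partly complementary sites, mostly in the 3′ UTRs of mRNAs, and lower the output of those mRNAs. Pairing rests chiefly on the seed, bases 2 to 8 of the microRNA. An antimir is a complementary oligonucleotide that binds the microRNA and keeps it from its targets. The type I interferon response, which takes up much of what follows, is set off when cells sense foreign nucleic acid or secreted interferon. A complex of STAT proteins and IRF9 then binds promoters that carry an interferon-stimulated response element and switches on antiviral genes.

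The mature strand of miR-23b that the antimir is directed against is shown with its seed in capitals, with the RefSeq sequence of GRCh38.p14 (chr9:95085265-95085287, plus strand), beside the 2 other human microRNAs that share that seed, on chr19:13836595-13836615 (minus strand, miR-23a) and chrX:20017101-20017122 (minus strand, miR-23c).
hsa-miR-23b-3p: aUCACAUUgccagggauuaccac
hsa-miR-23a-3p: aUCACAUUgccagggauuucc
hsa-miR-23c: aUCACAUUgccagugauuaccc
All 3 carry the identical 7 bases, so a seed match in a target is read by any of them. No value in these libraries shows that the microRNA itself was blocked. MIR23B was listed at 0 FPKM in both libraries, and its host gene C9orf3 stood at 14.1 FPKM with the antimir and 12.96 without.

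There was 1 library per group, so no difference here has a replicate check, no p-value was computed, and the antimir and other differences between 2 cultures cannot be told apart. Differences are given as log2(FPKM + 1) of the antimir library minus that of the control, centred on the median of the 9706 genes, which removed -0.042. The added 1 makes the differences of low genes too small. A gene is called higher or lower past 1.5-fold, a difference of 0.585. The low values of single-isoform genes fall on steps of 1 read. By those steps the antimir library was 1.18 times as deep as its control, and a value of 5 FPKM stood for about 152 reads per kb of transcript there and 128 in the control. The part of this gap in depth in the results was not tested. Of 12 colon epithelial markers 8 reached 5 FPKM, with KRT8, a keratin of simple epithelium, at 2410 and 2346 FPKM, and the adhesion protein EPCAM at 577 and 531. CDX1, CDX2, CDH17 and CEACAM5 stayed below 5 in both libraries. Of 11 markers of other cell types with an entry, none averaged 5. They summed to 7.71 FPKM in the antimir library and 6.78 in the control, mostly from CD68 (5.14 and 4.16), and ALB, COL3A1 and DCN were listed at 0 in both.

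In the antimir library 259 of the 9706 genes were called higher (2.67%) and 123 lower (1.27%). Many of these were small RNA genes, 72 of those higher and 37 of those lower, or genes listed at 0 in 1 library, 83 and 29. Among the 8761 protein-coding genes 120 were higher (1.37%) and 41 lower (0.468%). Of those 120 genes, 55 belonged to lists of interferon-linked genes. None of the genes called lower did.

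The interferon-linked lists together named 133 genes, of which 111 were measured. Of these, 56 were higher in the antimir library and none lower, 98 lay above 0, and the median difference was 0.59, beside 0 for all genes. The lists were drawn up with earlier results of these data known, so the count is a description and is no independent evidence of it. In bulk RNA, a response of all cells and a stronger one of fewer cells cannot be told apart. The summed FPKM of the 111 genes was 15964 in the antimir library and 8580 in the control. Genes that passed the minimum only through the antimir library had to be higher. Of the 101 genes with at least 5 FPKM in the control, 47 were called higher. Another 19 genes were below the minimum, 13 of them with the larger value in the antimir library. Among these, RSAD2, the antiviral enzyme viperin, stood at 3.37 FPKM against 0.683, and TRIM22 at 7.23 against 1.52.

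**Figure D1:**
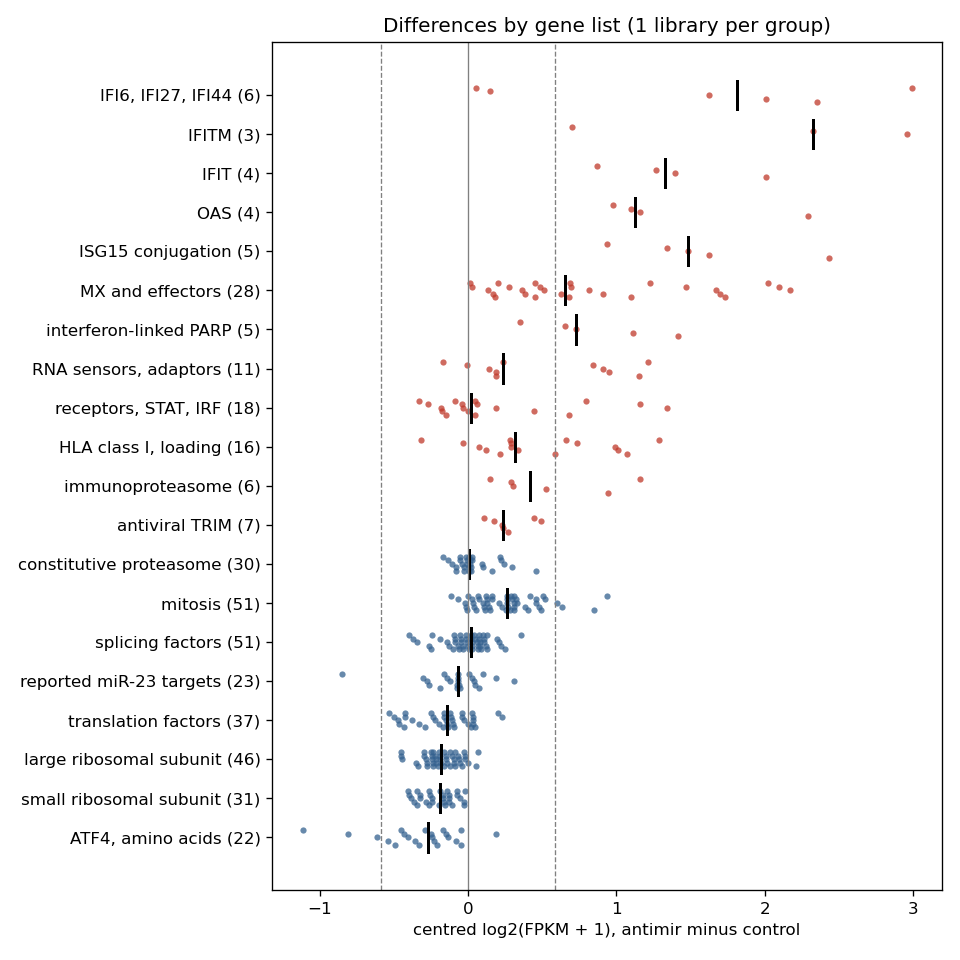
Each point is 1 gene, placed by its centred log2(FPKM + 1) difference between the antimir and the control library, with the number of measured genes in brackets, red for interferon-linked lists and blue for others. Black bars are medians and dashed lines mark 1.5-fold. The IFITM median stands at 2.33, the receptor, STAT and IRF median at 0.02 and the ATF4 and amino acid median at -0.27.

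The effector families held the largest values. All 4 measured genes of the IFI6, IFI27 and IFI44 group proper were higher, while both of their relatives were not. IFI44L had 81.1 FPKM with the antimir and 9.64 with the control oligonucleotide (2.99), IFI6, a small interferon-induced membrane protein, at 814 and 163 (2.36), IFI44 at 176 and 44.4 (2.01) and IFI27 at 2738 and 915 (1.62). IFI27L1 was at 15.2 and 14.1 FPKM (0.15) and IFI27L2 at 20.5 and 20.4 (0.05). The paralogs of IFI27 thus stood at nearly equal levels in both libraries beside a 3-fold higher IFI27.

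The IFITM proteins sit in membranes and block virus entry. IFITM1 was at 119 FPKM against 14.9 (2.96), IFITM3 at 235 against 47.4 (2.33) and IFITM2 at 69.5 against 43.7 (0.70). The members therefore lay on very different folds. Of these 3 genes IFITM1 was the lowest in the control, and IFITM2 was in the antimir library. IFITM10 was below the minimum, at 0.853 against 1.02. These genes are near-identical neighbours on chromosome 11, so how reads were divided among them is uncertain.

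The IFIT proteins bind foreign RNA that lacks the cap marks of the host. IFIT1 was at 87.7 FPKM against 21.7 (2.01), IFIT3 at 41.6 against 15.7 (1.39), IFIT5 at 22.9 against 9.22 (1.27) and IFIT2 at 11.7 against 6.12 (0.87). All 4 were higher. Of the OAS family, the enzymes OAS1, OAS2 and OAS3 sense double-stranded RNA and make the 2-5A signal. OAS2 was at 77.5 FPKM against 15.5 (2.29), OAS3 at 72.6 against 33.0 (1.16), OAS1 at 203 against 97.1 (1.10) and OASL at 19.5 against 9.69 (0.98). OAS1 was the most abundant of these in both libraries, and OAS2 had the largest difference.

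The ISG15 system attaches a ubiquitin-like protein to other proteins, and all 5 measured members were higher. ISG15 itself was at 432 FPKM against 159 (1.48). Of its enzymes, the activating UBA7 was at 9.84 against 4.83 (0.94), the conjugating UBE2L6 at 45.5 against 7.85 (2.44) and the ligase HERC6 at 32.8 against 10.3 (1.62). USP18, the protease that removes ISG15 and restrains the interferon receptor, was at 7.90 against 2.62 (1.34). UBA7 and USP18, below 5 FPKM in the control, passed the minimum only through the antimir library, so they had to lie higher there. The ligase known for most ISG15 conjugation in human cells, HERC5, was below the minimum at 1.16 FPKM against 0.475. In hg19 the UBE2L6 locus is chr11:57319129-57335757.

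All 28 measured genes in the list of MX proteins and other effectors lay above 0, with a median of 0.66, and 15 were called higher. XAF1, a promoter of cell death, was at 18.8 FPKM against 3.54 (2.17), EPSTI1 at 16.2 against 3.14 (2.10), MX1, a GTPase that traps viral particles, at 61.7 against 14.9 (2.02) and DDX60, a helicase, at 41.6 against 12.2 (1.73). XAF1 and EPSTI1, below 5 FPKM in the control, passed the minimum only through the antimir library and had to lie higher there. The bottom of the list held GBP2 at 20.5 against 20.9 (0.01), TMEM140 at 10.6 against 10.8 (0.03) and the exonuclease ISG20 at 11.1 against 10.3 (0.14). GBP1 was below the minimum at 4.35 against 2.08. Of the 5 interferon-linked PARP genes 4 were higher, led by PARP9 (42.2 against 15.7, where failed isoforms held 39.8% of the FPKM) and PARP14 (123 against 58.2). None of 7 antiviral TRIM genes was called, though all lay above 0 with a median of 0.23. TRIM21 had the largest value of these, at 21.6 against 15.5 (0.49). TRIM22, also in that list, averaged below the minimum and was left out of the count, at 7.23 against 1.52.

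Upstream of these effectors the picture was divided. Of 11 cytoplasmic RNA sensors and adaptors 5 were higher, and these 5 were all sensors or kinases: DDX58 (RIG-I) at 28.1 FPKM against 12.0 (1.21), IFIH1 (MDA5) at 21.7 against 9.52 (1.15), DHX58 at 8.07 against 3.83 (0.95), IKBKE at 10.8 against 5.46 (0.91) and EIF2AK2 (PKR) at 75.02 against 42.6 (0.84). Of these 5, DHX58 passed the minimum only through the antimir library and had to lie higher there. MAVS, the adaptor of RIG-I and MDA5, was at 15.5 against 18.1 (-0.17). In the DNA-sensing pathway the sensor MB21D1 (cGAS) was at 6.19 against 6.43 (-0.01) and its adaptor TMEM173 (STING) at 10.8 against 9.65 (0.19). Each sensor that exceeded 1.5-fold is itself a known interferon-induced gene.

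In the list of receptors, STATs and IRFs the median was 0.02 over 18 genes (-0.02 without centring), and 4 were higher, among them USP18, IRF9 at 103 FPKM against 60.8 (0.80) and IRF7 at 48.1 against 30.6 (0.68). STAT2, a partner of IRF9, was at 23.2 against 17.3 (0.44). The receptor chains lay within 0.33 of 0, with IFNAR1 at 14.2 against 16.6 (-0.17), IFNAR2 at 4.91 against 6.65 (-0.33), IFNGR1 at 50.6 against 50.4 (0.05) and IFNGR2 at 27.7 against 27.2 (0.06). The kinases JAK1 (14.7 against 15.6) and TYK2 (23.3 against 24.6) were also near equal. No interferon gene was measured. Of 10 listed, 6 had a transcript entry: IFNG, IFNK, IFNW1, IL28A, IL28B and IL29. No IFNA gene and no IFNB1 was among these, and genes without an entry could not be checked. None of the 6 averaged 5 FPKM. IL28A (interferon lambda 2) was at 0.162 against 0.0637 and IL29 (interferon lambda 1) at 0.132 against 0.104. IFNG was listed at 0 in both.

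Of 16 measured genes of HLA class I and peptide loading 7 were higher, with a median of 0.32. B2M, the light chain of every HLA class I molecule, was at 4966 FPKM against 2536 (1.01). Of the heavy chains, HLA-F was at 11.3 against 4.20 (1.29), HLA-B at 30.1 against 15.1 (0.99), HLA-C at 80.7 against 49.6 (0.73), HLA-G at 8.01 against 6.64 (0.28) and HLA-E at 51.4 against 45.4 (0.22). These genes are close relatives and vary between genomes, so reads may have been split among them or lost. The peptide transporter genes were both higher, TAP1 at 10.7 against 4.74 (1.07) and TAP2 at 46.0 against 31.3 (0.59). The general chaperones of loading were not, with CALR at 234 against 229 (0.08), PDIA3 at 408 against 386 (0.12) and CANX, the least of the 16 measured, at 437 against 560 (-0.31). HLA-F and TAP1, below 5 FPKM in the control, passed the minimum only through the antimir library and had to lie higher there.

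The immunoproteasome replaces catalytic subunits of the constitutive proteasome under interferon. PSMB9 was at 13.2 FPKM against 5.51 (1.16), PSMB8 at 32.6 against 17.0 (0.94) and PSMB10 at 28.99 against 24.04 (0.30). Among the constitutive subunits they replace, PSMB6 was at 51.3 against 59.4 (-0.17) and PSMB5 at 121 against 137 (-0.13). All 30 measured constitutive proteasome genes stayed inside 1.5-fold with a median of 0.01. The NF-kB list had 5 measured genes of 22, none higher, and a median of -0.30, which was 0.14 at a minimum of 1 FPKM. NFKB1, a subunit of the factor, was at 9.89 against 16.6 (-0.65), and its inhibitor NFKBIA at 31.8 against 40.7 (-0.30).

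**Figure D2:**
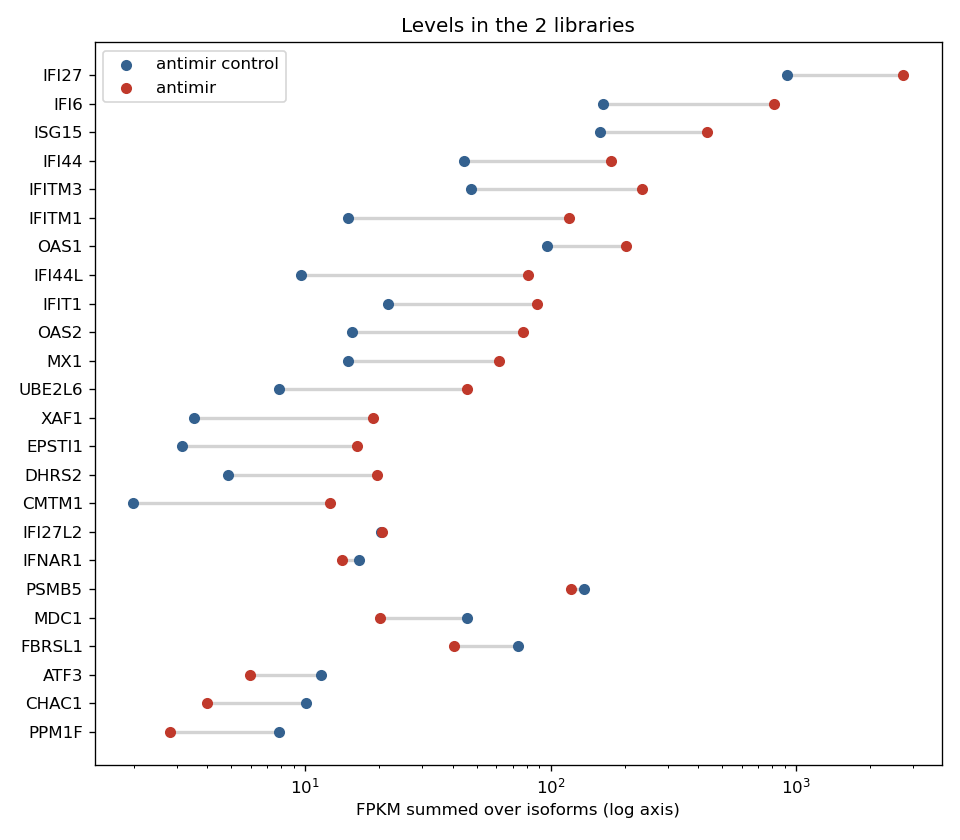
FPKM summed over isoforms on a log axis, for the antimir library (red) and its control (blue), 1 library each, for genes of the interferon lists, for genes chosen as unlike them and for the lowest named genes. IFI27 spans 915 to 2738 and CMTM1 1.99 to 12.6, while the points of IFI27L2 nearly coincide.

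The precursor comparison, made from another pair of libraries, gave a side view of the same genes. There the joined interferon lists had a median of -0.06 over 102 measured genes, with 1 higher and 2 lower. The authors normalised the tables separately, and FPKM in the precursor control exceeded that in the antimir control by a median of 0.31 on the log2 scale. With this shift taken out, the antimir library held the highest value of the 4 libraries for 51 of the 52 interferon genes called higher and present in both tables. For protein-coding genes called higher in no interferon list this was so for 41 of 65, and the antimir control held the lowest value in 49 of 65. For the 41 protein-coding genes called lower, the antimir library was the lowest of the 4 in 39. Of the 8731 protein-coding genes tested and present in both tables, the antimir library was highest in 19% and lowest in 36.3%. The antimir control was lowest in 1930 of these. Genes called by the antimir library and its control favour these orders by their choice, so the counts are a description.

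Promoter sequence was set beside these values because many interferon-linked genes were higher together. The stretches shown are 30 bases each, upstream of the start site in the sense of the gene, from RefSeq on GRCh38.p14, and capitals mark matches, overlapping ones included, to GAAA followed after any 2 bases by GAAA, read on either strand. This is the core of an interferon-stimulated response element. They lie at chr1:78620273-78620302 (plus strand, IFI44L), chr1:27672276-27672305 (minus strand, IFI6), chr10:89392503-89392532 (plus strand, IFIT1), chr1:1013376-1013405 (plus strand, ISG15), chr11:313989-314018 (plus strand, IFITM1) and chr3:146544668-146544697 (minus strand, PLSCR1).
IFI44L: ttcctagtgagGAAAAAGAAAgttagtggc
IFI6: AAATGAAActgcagagtgcaGAAATAGAAA
IFIT1: ttagTTTCACTTTCcccTTTCGGTTTCcct
ISG15: tgcctcggGAAAGGGAAACCGAAActgaag
IFITM1: acaaacagcagGAAATAGAAActtaagaga
PLSCR1: gcgggaaccggGAAAAGGAAAccgtgttgt
IFIT1 and ISG15 each hold 2 matches in this stretch, those of ISG15 overlapping, and the capitals at the start of the IFI6 stretch are the end of a match that begins before it.

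Promoters of 300 bases, 250 before and 50 after the start, were matched by gene identifier, or else by symbol or synonym. A promoter was found for 7322 of the 8761 protein-coding genes (83.6%). This motif was in 3.65% of all 27305 RefSeq promoters. It was in 28 of the 96 promoters of protein-coding genes called higher (29.2%), in 0 of 35 of those called lower and in 178 of 7191 of the remaining genes (2.48%). Within the genes called higher, it was in 27 of 44 with an interferon list (61.4%) and in 1 of 52 without (1.92%), the latter being CFB, complement factor B, at 17.0 FPKM against 8.005. Of the 206 protein-coding genes with the motif, 137 lay above 0, and their median difference was 0.08. The 178 with the motif that were not called had a median of 0.04. The first match began between 164 bases before and 11 bases after the start site in the 28 genes, at a median of 98 before. For TTCNNNGAA, a palindrome known as the STAT site, the shares were 16.7% of genes called higher and 7.88% of all promoters. A match describes letters in a window and shows no binding.

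Sites for miR-23b were counted in 1 3′ UTR per gene, its longest, in GENCODE 29 matched by identifier. Isoforms marked for nonsense-mediated decay were not left out. The 7-mer AATGTGA, complementary to the seed, was in 1873 genes. Their median difference was 0.00, as was that of the 6825 genes without it, and 943 of the 1873 lay above 0. Of genes with the 7-mer 1.44% were higher and of those without it 1.26%. The 896 genes with the 8-mer AATGTGAA had a median of 0.01. In the precursor table the medians were -0.03 with the 7-mer and 0.01 without.

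The genes with a 7-mer that were called higher included interferon genes, among them IFIT1, IFIT5, SAMD9 and B2M, and others such as ZNF514 at 21.0 FPKM against 6.73 (1.55) and the kinesin KIF20B at 18.95 against 10.4 (0.85). These were picked from 27 such genes after their values were seen. Of the 23 genes measured in the list of reported miR-23 targets, 19 had the 7-mer in a UTR, and 8 of those 19 lay above 0 with a median of -0.07. Isoforms of 1 gene can differ in whether they hold the site. Isoforms with an annotated coding sequence and 3′ UTR were used, those marked for nonsense-mediated decay included. In 1425 genes with both site-bearing and site-free isoforms, the site-bearing share was larger in the antimir library in 778 and smaller in 647. The median difference was 0.32 percentage points. The site-bearing share was at least 20 points larger in 28 genes and at least 20 points smaller in 24.

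**Figure D3:**
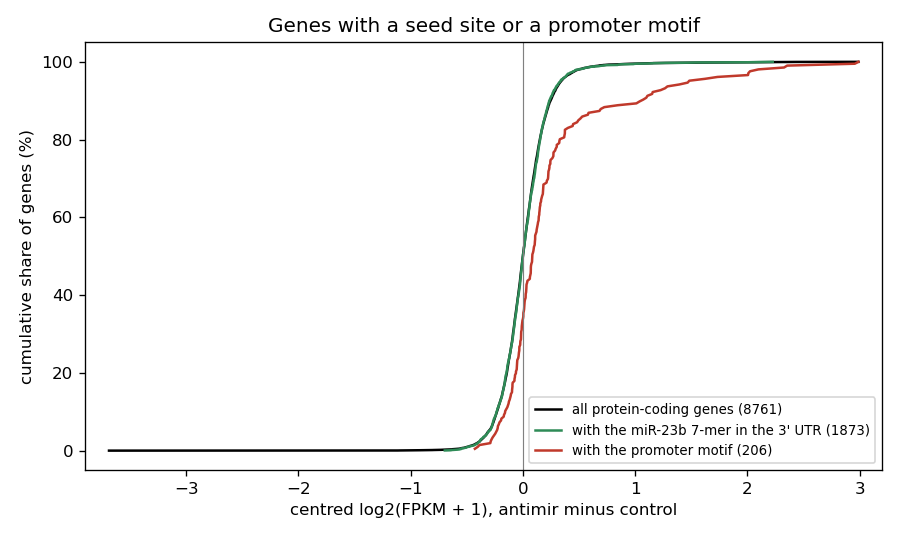
Cumulative share of genes (y axis, %) by the centred log2(FPKM + 1) difference between the antimir and control libraries (x axis). The curve of the 1873 genes with the miR-23b 7-mer runs on that of the 8761 protein-coding genes, and the curve of the 206 genes with the promoter motif lies to the right, with 28 of them past 1.5-fold.

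Outside the interferon lists the named genes were few and mostly low. By the rule used, the 15 highest genes held 3 outside those lists. HCG9, a noncoding gene in the HLA region (chr6:29942889-29946183, hg19), had 16.1 FPKM with the antimir, while the control and both precursor libraries were listed at 0. CMTM1 (chr16:66586466-66613040) was at 12.6 against 1.99 (2.23). Its precursor libraries stood at 11.2 and 9.44, so here the antimir control was the library that stood apart. CMTM1 shares read-through transcripts with its neighbour CKLF, which makes its sum uncertain. DHRS2, a mitochondrial and nuclear reductase (chr14:24099324-24114848), was at 19.6 against 4.86 (1.86), beside 5.73 and 6.53 in the precursor libraries. In the authors' deposited table an isoform of DHRS2 was called higher, at 17.0 FPKM against 4.02, with a listed q of 0.

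Of the 65 protein-coding genes called higher in no interferon list, SAMHD1, which destroys deoxynucleotides and restricts viruses, was at 33.4 FPKM against 14.9 (1.15). The lysosomal protease CTSS was at 22.3 against 14.004 (0.68), and RNF213, a giant ubiquitin ligase, at 40.2 against 26.3 (0.64). They were not in the lists used here and were chosen after their values were seen. Of 51 mitosis genes, 4 were higher, where 1.37% of all protein-coding genes were, and none lower, 46 lay above 0 and the median was 0.26, beside -0.10 in the precursor comparison. CENPE, the kinetochore motor, was at 25.6 against 13.3 (0.94), KIF20B at 0.85, the kinetochore subunit NUF2 at 25.4 against 16.5 (0.63) and ASPM, a spindle pole protein, at 23.7 against 15.7 (0.60). NUF2 was at -0.35 when only its most abundant isoform was used. DNA replication genes had a median of 0.03 over 40, none called, and without centring it was -0.01.

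The lowest named genes mostly stood between 3 and 20 FPKM in the antimir library. PPM1F, a phosphatase (chr22:22273793-22307209), was at 2.81 against 7.84 (-1.17), CHAC1, a glutathione-degrading enzyme (chr15:41245160-41248710), at 3.97 against 10.1 (-1.11), and MDC1, a scaffold of the DNA damage response, at 20.1 against 45.5 (-1.10). MDC1 was at -0.45 when only isoforms with an OK status were summed. THBS1, a matrix glycoprotein, was at 4.68 against 10.4 (-0.97), the stress kinase MAP2K7 at 8.35 against 17.8 (-0.96), and ATF3, a stress transcription factor, at 5.98 against 11.6 (-0.81). The other 9 ran from TPRN at -1.02 to ZNF219 at -0.75. With only the most abundant isoform, TPRN was at -0.10, THBS1 at -0.30, MAP2K7 at -0.23 and SHQ1 at 0.14 in place of -0.91, so their sums rest on minor isoforms.

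CHAC1 and ATF3 belong to the ATF4 program, which answers amino acid shortage and endoplasmic reticulum stress by inducing transporters, amino acid synthesis and tRNA charging. Of its 22 measured genes 21 lay below 0, with a median of -0.27, and 3 were lower, where 0.468% of all protein-coding genes were. CHAC1 and ATF3, already named as among the lowest genes, are 2 of these 3. The other was SLC7A11, the cystine importer, at 12.2 FPKM against 19.8 (-0.62). Below 1.5-fold lay DDIT4 at 55.3 against 83.3 (-0.54), PSAT1, of serine synthesis, at 47.4 against 69.0 (-0.49), SHMT2 at 156 against 220 (-0.45) and TRIB3 at 20.2 against 28.5 (-0.43). ATF4 itself was at 153 against 162 (-0.04) and DDIT3 (CHOP) at 20.6 against 21.9 (-0.05). The differences thus lay in enzymes, transporters and feedback genes more than in the mRNA of the factor. In the authors' deposited table an isoform of CHAC1 was called lower, at 1.51 FPKM against 4.56, with q = 0.00015.

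The translation machinery lay mostly below 0. Of 46 large-subunit ribosomal protein genes 44 were below 0 (median -0.18), as were all 31 of the small subunit (median -0.19) and 28 of 37 translation factors (median -0.14). None was past 1.5-fold. Among the factors EIF4B, which aids ribosome scanning, was at 104 FPKM against 155 (-0.53), EEF1G at 1025 against 1493 (-0.50), the poly(A)-binding protein PABPC1 at 1586 against 2267 (-0.47) and EIF3F at 95.7 against 136 (-0.46). EIF4A2 was the highest at 655 against 577 (0.23). The ranges of the lists overlap that of all protein-coding genes, whose central 95% ran from -0.38 to 0.46. These medians stayed below 0 under each scaling tried, at -0.10, -0.11 and -0.06 when each library was scaled to the same sum over the genes tested.

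Isoform use was compared by the share of each isoform in its gene's FPKM. The shift of a gene is the part of its FPKM, in percent, that would have to be moved between isoforms to turn one library's shares into the other's. Of 8519 genes 1809 had a shift of at least 20% (21.2%), and in 232 a different isoform was the most abundant, with the former one at least 20 points lower (2.72%). The precursor comparison, with libraries that the same steps put deeper (from 8 genes), gave 859 of 9291 (9.25%) and 72 (0.775%). Estimated shares carry an error that is largest in low genes and in genes with many isoforms, and no replicate measures it here.

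Shifts declined with expression in both comparisons. In the antimir comparison 40.5% of genes with a mean of 5 to 10 FPKM, 27.3% of those from 10 to 20, 16.5% from 20 to 50 and 4.16% at 50 or more were shifted by 20%. The precursor comparison gave 23.8%, 13.9%, 6.21% and 0.642% in the same bins. Of the genes shifted in the antimir comparison 24.9% were also shifted in the precursor one, which is 52.5% of the latter's genes. In 12 genes the most abundant isoform differed in both.

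**Figure D4:**
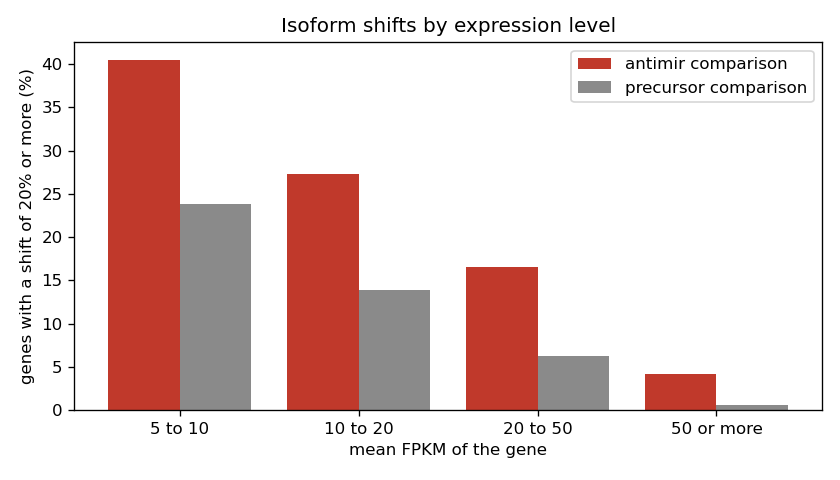
Percentage of genes with an isoform shift of 20% or more (y axis, from 0) in 4 bins of mean FPKM (x axis), for the antimir comparison (red) and the precursor comparison (grey). The antimir bars run from 40.5% down to 4.16% and the grey bars from 23.8% to 0.642%.

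Isoform shares of the interferon genes were shifted about as often as those of all genes. Of the joined lists 105 genes had testable shares, 20 were shifted by 20% (19%) and 6 had another most abundant isoform. The median shift was 8.12%, beside 10.8% for all genes. Of the 52 called higher with testable shares 12 were shifted (23.1%), beside 21.2% of all genes. Their median shift was 9.62%, beside 16.7% for all genes called higher. Expression levels were not matched in these comparisons. In 52 interferon genes called higher, 241 isoforms averaged at least 1 FPKM. Of these, 225 lay above 0, 191 were at least 1.5-fold higher and 5 at least 1.5-fold lower. Of all 36085 isoforms with that mean, 10.8% were at least 1.5-fold higher and 10.3% at least 1.5-fold lower. The interferon genes were chosen by the sum of their isoforms, so most of the 241 had to lie higher.

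Several genes with many-fold differences had nearly constant shares. The main IFI6 isoform, ENST00000361157, held 71.4% of the gene's FPKM in the control and 72.4% in the antimir library, and the second, ENST00000362020, 25.1% and 24.9%. IFIT3 divided 51.2% and 48.8% between 2 isoforms in the control and 51.3% and 48.7% in the antimir library. OAS1 kept ENST00000550883 as the chief isoform at 82.1% and 78.6%. UBE2L6 kept its chief isoform at 67.2% and 62.9%. In the authors' deposited table both IFI6 isoforms were called higher, the second with q = 0.00048.

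A few interferon genes did shift. DDX60L, a relative of DDX60, had the clearest case. Its isoform ENST00000511577 held 47.1% in the control and 4.15% in the antimir library, while ENST00000260184 held 4.13% and 42.0%. In FPKM the former went from 3.75 in the control to 0.806 and the latter from 0.329 to 8.15. The authors' deposited table called ENST00000260184 higher with q = 7.8e-06. In the precursor libraries ENST00000260184 held 14.1% and 13.6%, and ENST00000511577 9.56% and 11.3%, so in the control of the antimir the former was the lowest, and the latter the highest, of the 4 libraries.

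TAPBPL, an editor of HLA class I peptides, had the largest shift of the interferon genes called higher, 59.0%, and 35.9% in the precursor comparison. Its coding isoform ENST00000266556 was listed at 0 in the control and held 33.4% in the antimir library, at 2.26 FPKM, and was called higher in the authors' deposited table with q = 0.0041. Noncoding isoforms ENST00000539384 and ENST00000544826 held 28.99% and 24.7% in the control and were listed at 0 in the antimir library. In the precursor library and its control ENST00000266556 held 25.5% and 20.9%, so only the antimir control listed it at 0. There ENST00000539384 held 3.53% and 0%, and ENST00000544826 4.79% and 18.5%. HLA-B, named after its values were seen, had 82.5% in ENST00000426590 and 15.4% in ENST00000428231 in the control, and 45.4% and 41.6% in the antimir library. The FPKM of ENST00000426590 was 13.7 against 12.5, so the higher HLA-B sum came from the other isoforms. ENST00000428231 was called higher in the authors' deposited table with q = 0.00011, at 12.5 FPKM against 2.33. In the precursor library and its control it held 0% and 1.54%, and ENST00000426590 58.2% and 52.2%. IRF7 shifted by 39.6% and PARP10 by 39.8%. In IRF7 an isoform marked for nonsense-mediated decay, ENST00000532788, held 13.8% in the control and 1.68% in the antimir library.

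**Figure D5:**
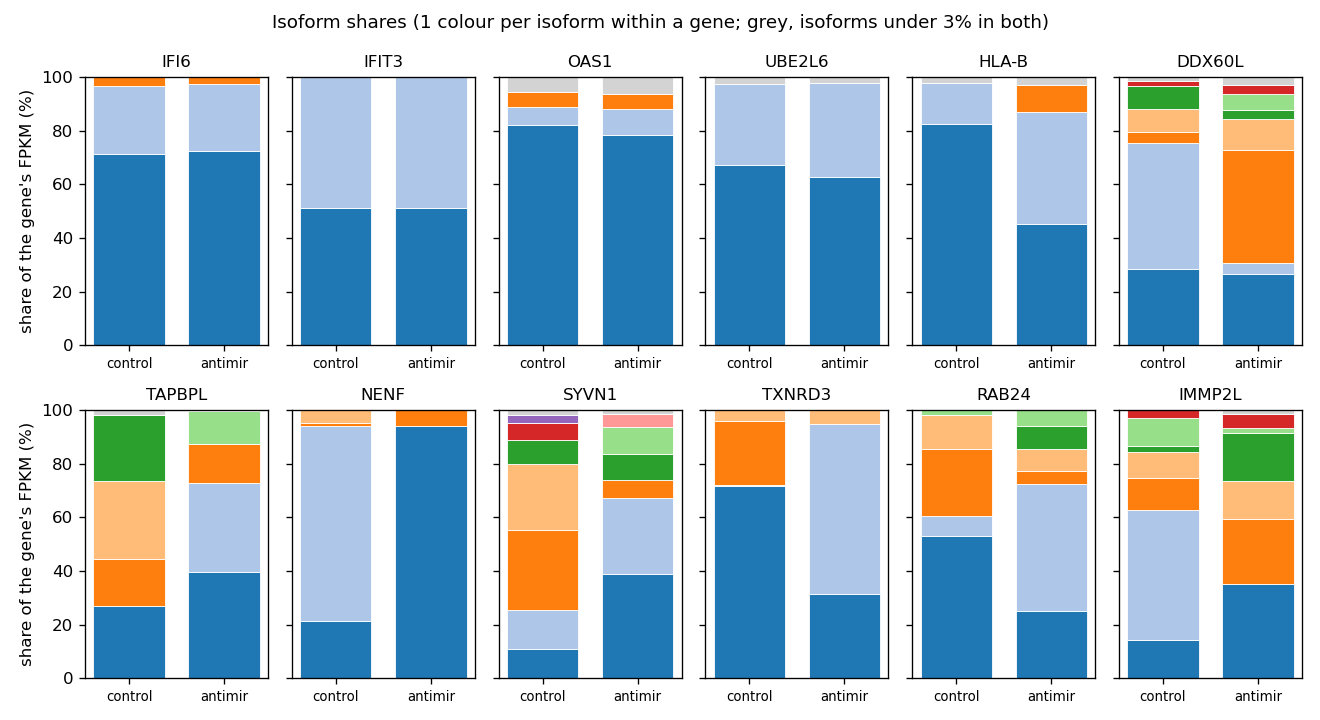
Share of each isoform in its gene's FPKM (y axis, %) in the control and the antimir library, 1 library each, for 12 genes. Each colour is 1 isoform within a gene and grey gathers isoforms under 3% in both. IFI6 and IFIT3 look alike in both columns, while DDX60L, HLA-B, TAPBPL and NENF do not.

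The largest isoform shifts among genes with at least 10 FPKM in both libraries were outside the interferon lists, and in most of them the gene's sum differed little. NENF, a secreted neurotrophic factor, was at 10.9 FPKM against 10.5, and its coding isoform ENST00000366988 held 21.4% in the control and 94.1% in the antimir library, with a shift of 77.3%. The noncoding ENST00000473900 held 72.6% in the control and was listed at 0 in the antimir library. In the precursor libraries the coding form held 40.1% and 55.5%. SYVN1, the ubiquitin ligase of endoplasmic reticulum quality control, was at 11.5 against 15.6 and shifted by 58.5%, beside 2.53% in the precursor comparison. Its isoform ENST00000377190 held 29.8% in the control and 6.96% in the antimir library, and ENST00000294256 10.9% and 38.8%. In the precursor libraries ENST00000377190 held 2.25% and 2.26%, and ENST00000294256 2.21% and 1.21%. Other isoforms held most of the gene's FPKM there, so the 2.53% describes a different mix.

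RAB24, a small GTPase linked to autophagy, was at 13.5 FPKM against 13.6, with its chief isoform going from 53.1% (ENST00000303251) in the control to 47.3% in another coding one (ENST00000393611) in the antimir library. IMMP2L, a mitochondrial peptidase, was at 19.3 against 20.3, and ENST00000437687 held 48.6% in the control and 0.338% in the antimir library. That isoform held 3.38% in the precursor library and was listed at 0 in its control, so its share in the antimir control stood apart from the other 3 libraries. With only isoforms of OK status the shift of IMMP2L was 21.3% in place of 56.6%. TXNRD3, a thioredoxin reductase, was at 999.9 against 744 FPKM, and 3 of its 4 isoforms, the next one included, were marked as not tested by the authors' software. An isoform marked for nonsense-mediated decay, ENST00000519162, held 63.3% in the antimir library and 0.48% in the control, but 63.5% and 66.7% in the precursor libraries, so here too the antimir control was the odd one.

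The remaining named shifts were CREM (69.9%), C3orf75 (68.6%), ABTB1 (59.2%), COL9A3 (51.9%), MED24 (51.8%), RCHY1 (51.2%) and PACRGL (51.1%). CREM, a cAMP-responsive transcription factor with 55 annotated isoforms, was at 16.4 FPKM against 10.2. Its retained-intron isoform ENST00000482633, marked as low in data, was listed at 0 in the control and held 34.7% in the antimir library, beside 45.3% and 36.1% in the precursor libraries. An isoform each of C3orf75 (q = 0.00064), MED24 (q = 0.024) and PACRGL (q = 0.016) was called lower in the authors' deposited table, and no isoform of the other 4 was called.

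The authors' deposited table called 151 transcripts higher in the antimir library (0.243% of 62029 tested) and 106 lower (0.171%). These calls compare 2 libraries, not 2 conditions. Of the 151 in the authors' deposited table, 82 were listed at 0 in the control, and of the other 69 a total of 37 belonged to interferon genes. Of the 106 lower, 66 were listed at 0 in the antimir library and none of the other 40 belonged to an interferon list. Among the 8519 genes with testable shares, 11 had 1 isoform called higher and another lower in the authors' deposited table, among them FAM117B, FSD1L, KIF15, LRRC8A, MADD, PAQR6, TRAPPC2 and ZNF107. LRRC8A, a subunit of the volume-regulated anion channel, held ENST00000372599 at 0.605 FPKM against 4.30 and ENST00000372600 at 5.34 against 2.55. ZNF107 held ENST00000344930 at 5.09 against 0.919 and ENST00000423627 at 0.362 against 2.33. Their sums were 7.72 against 6.87 for LRRC8A and 7.39 against 4.94 for ZNF107.

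By annotated class the isoforms of protein-coding genes were spread much alike in both libraries. Coding isoforms held 68.4% of FPKM in the antimir library and 69.8% in the control, retained-intron isoforms 7.19% and 6.83%, isoforms marked for nonsense-mediated decay 5.20% and 5.02% and processed transcripts 9.29% and 8.98%. In the precursor libraries retained-intron isoforms held 8.02% and 8.41%, in the opposite order. Gene by gene, the retained-intron share was larger in the antimir library in 2365 genes and smaller in 2003, and it was at least 20 points larger in 35 and smaller in 33. Of the 232 genes whose chief isoform differed, 85 went from 1 coding isoform to another, 27 from a coding to a noncoding or decay-marked one and 42 the opposite way.

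Splicing factors, the proteins that choose exons, lay on both sides of 0. Of 51 measured, none was called, and the median was 0.02, or -0.02 without centring. Of 49 with testable shares 5 were shifted by 20% (10.2%), beside 21.2% of all genes, and their median shift was 9.87%, beside 10.8%. PTBP2, a regulator of neuronal exons, was at 11.7 FPKM against 11.5, and its processed transcript ENST00000462433 held 42.6% in the control and 22.5% in the antimir library. CLK2, a kinase of splicing factors, shifted by 30.9%, RBFOX2 by 27.3% and CLK3 by 22.7%. Among other lists, 10 of 22 DNA repair genes and 8 of 18 genes of the microRNA machinery were shifted, against 0 of 26 constitutive proteasome, 0 of 66 nuclear oxidative phosphorylation and 1 of 43 large ribosomal subunit genes. The median level of these genes was 25.9 FPKM for repair, 26.8 for the microRNA machinery, 106 for the proteasome, 144 for oxidative phosphorylation and 1388 for the ribosomal genes, and that of the splicing factors was 113, beside 22.6 for all genes. TARBP2, the partner of Dicer, had the largest shift of the microRNA machinery at 45.4%, with ENST00000550407 at 17.1% in the control and 0.0535% in the antimir library, and a sum of 23.1 FPKM against 22.3.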

How the data were processed

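RNA sequencing of HT29 cells was deposited as 2 tables, 1 per treatment and control pair. Per the submitters' processing notes, bcl2fastq 1.8.3, TopHat2 2.0.11, Cufflinks 2.2.0 and Cuffdiff were used with hg19. Settings and annotation: not given in the sources used here. FPKM values deposited by the authors are per isoform and library. The authors' p-value and q-value per isoform were also deposited, per the file headers.

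Transcript entries of the antimir table that had not failed (1371 failed) were summed per gene. Genes with a mean of at least 5 FPKM were kept, 1 was added, and log2 differences were centred on their median, in Python 3.11.15 with pandas 2.3.3. Calls were at 1.5-fold for genes and 20% for isoform shares, without a test. The steps were checked on simulated tables. By the steps of low values (47 genes), depth was about 30.4 M reads or fragments in the antimir library and 25.7 M in its control, a rough estimate. The 15 highest and 15 lowest genes with assigned symbols and under 20% of FPKM failed, and the 12 largest shifts at 10 FPKM or more in both libraries, were named, with list members of large difference. Identifiers matched GENCODE 29, which is built on another assembly, for 97.6% of the genes and 87.9% of transcript entries, and supplied classes and 3′ UTRs only. Promoters and microRNAs came from RefSeq GRCh38.p14. The members and lists were chosen with earlier results of these data known. Pseudocount, expression minimum, failed entries, chief isoform and scaling were varied. Results of some genes are not reported here.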

Additional observations from a re-analysis of the deposited data

How the results depend on the processing

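The 259 higher, 123 lower and 56 interferon genes called higher stayed within 1.5 times at a pseudocount of 0.1, with failed isoforms kept, with OK isoforms only, without centring and with scaling to an equal sum. At a mean of 1 FPKM 495 genes were higher and 284 lower, at 20 FPKM 112 and 40 with 37 interferon genes, and with only the most abundant isoform 445 and 327. Without small RNA genes and genes listed at 0 in 1 library, a choice made after seeing the data, they were 158 and 76. The precursor comparison processed alike gave 145 higher, 190 lower and 1 interferon gene higher. The 1809 isoform shifts and 232 changes of chief isoform became 4549 and 619 at a limit of 10%, 638 and 77 at 30%, 501 and 42 at a mean of 20 FPKM, and 859 and 72 in the precursor comparison. With TTCNNNGAA the motif share of genes called higher was 16.7%. Of 337 list medians, 333 moved by less than 0.18, the robust SD of all differences. The named genes were less stable. Of their 30 differences, 19 moved at least that far, in the same direction from 0, with only the most abundant isoform. With OK isoforms only 5 did so, and at a pseudocount of 0.1 also 5. The NF-kB median turned from -0.30 to 0.14 at a mean of 1 FPKM, which adds genes, and SHQ1 from -0.91 to 0.14 with its most abundant isoform, the cause of which was not tested. No paired analysis was possible because each group had 1 library. With that number no replicate could be left out, and isoform shifts were most frequent at 5 to 10 FPKM, where fewest reads stand behind a share.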

Other observations

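Families defined only by a shared symbol stem, with at least 10 protein-coding members measured, gave 94 groups. The lowest median was that of the PTPN phosphatases at -0.22 over 11 genes, 8 of them below 0, with PTPN23 at 3.82 FPKM against 8.59 and PTPN11 (SHP2), an adaptor phosphatase of growth factor signalling, at 40.4 against 50.3. Every one of 10 myosin heavy chain genes (MYO) lay below 0, with a median of -0.15, from MYO9A at 10.4 against 15.7 (-0.51) to MYO1D at 18.7 against 19.7 (-0.03). None of the MYO genes was past 1.5-fold, and the values nearest 0 depend on the scaling. The highest median was that of the centrosomal CEP genes at 0.14, with 16 of 21 above 0, led by CEP152, a scaffold of centriole assembly, at 12.0 against 9.32 (0.37) and CEP164, of the ciliary appendages, at 10.8 against 8.50 (0.36). Mitochondrial ribosomal MRPL genes had a median of 0.09, with 34 of 46 above 0, opposite in sign to the RPL genes of the cytosolic ribosome at -0.15, with 42 of 47 below 0. The 6 genes of the mitochondrial genome measured through transcript entries all lay below 0, from MT-CO1 at 2921 against 3416 FPKM (-0.18) to MT-CO3 (-0.44), with a median of -0.35.

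Death receptor and BCL2 family genes had a median of 0.07 over 27 genes, with 19 above 0, 8 below 0 and none called. TNFSF10 (TRAIL), a death ligand that interferon is known to induce, was at 25.8 FPKM against 17.5 (0.58), and its receptor TNFRSF10A was at 6.33 against 9.80 (-0.52). TNFRSF10B, the other signalling receptor, was at 27.5 against 28.1 (0.01). Of 25 of these genes with testable shares 7 were shifted by 20%, where 21.2% of all genes were.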
